A study of Rattus norvegicus with 4 samples.

Results

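The genes described here are the axon guidance ligands and receptors of the rat ventral tegmental area (VTA), the midbrain region that holds dopamine neurons of the reward system. They were chosen by symbol, as every Slit, Robo, netrin (Ntn), Unc5, Dcc, semaphorin (Sema), plexin (Plxn), ephrin (Efn) and Eph receptor gene of the count tables, which gave 66 genes of 32883, of which 35 encode ligands and 31 receptors. The study profiled single nuclei of the VTA from Sprague-Dawley rats of 90 to 120 days that had received no experimental treatment. Tissue of 3 animals of 1 sex was pooled for each of its 4 libraries (2 female, 2 male), so that animals cannot be told apart within a library. Nuclei were sorted by flow cytometry and made into droplet libraries that count unique molecular identifiers (UMIs) near the 3′ ends of polyadenylated RNA.

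Nuclei were assigned by raw UMIs of a few genes that are not among the 66. The dopamine gate needed at least 2 UMIs of Th and of Slc6a3, the GABA gate at least 2 of Gad1, and the glutamate gate at least 2 of Slc17a6 with none of Gad1. A further neuron gate needed at least 2 UMIs of Slc26a7 and 1 of Gad2. The glial gates needed at least 1 UMI of Mog and of Mobp (oligodendrocyte), 2 of Pdgfra (precursor, that is oligodendrocyte precursor), 1 of Gja1 and of Aqp4 (astrocyte) or 1 of Csf1r and of C1qa (microglia). Of 20620 nuclei kept, 306 entered the dopamine gate, 93 the Slc26a7/Gad2 gate, 1132 the GABA gate, 1522 the glutamate gate, 8515 the oligodendrocyte gate, 1334 the precursor gate, 1851 the astrocyte gate and 924 the microglia gate. The Slc26a7/Gad2 gate held only 12 to 32 nuclei per library and is the least precise. A level below is the gene's UMIs per 1000000 UMIs (CPM) summed over a gate's nuclei in 1 library. Values of single libraries stand in the order female 1, female 2, male 1, male 2, and a mean ± SD is over these 4 libraries (n = 4).

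Marker genes were checked against the gates' names, and all but Gad1, Gad2 and Slc17a6 were outside the gate definitions. The summed level of 8 dopamine neuron markers was 2804 to 3397 CPM in the dopamine gate and 1202 to 1439 in the Slc26a7/Gad2 gate. It was 85.3 to 114 in the GABA, 165 to 191 in the glutamate and 174 to 256 in the astrocyte gate. In the other glial gates it was at most 31.0, so the Slc26a7/Gad2 nuclei carried dopamine markers. Of the GABA markers, Slc32a1 was at 212 to 337 CPM there, Gata3 and Nkx2-2 had no UMI, and Gad1 had 12 UMIs in male 1, 1 in male 2 and 0 in both female libraries. The glutamate marker Slc17a6, which also defines the glutamate gate, was at 143 to 200.4 CPM in the same gate, and 36 nuclei passed both gates. Tcf7l2, another listed glutamate marker, had no UMI in the Slc26a7/Gad2 gate. In the microglia gate the astrocyte marker Slc1a3 was read at 1144 to 1959 CPM, while the astrocyte markers Slc1a2 and Aldh1l1 had 2 UMIs each over the 4 libraries. Libraries held 19714338 to 25824289 UMIs, and the median nucleus had 9111.5 UMIs in the dopamine gate against 1356.5 in the microglia gate, so levels in microglia rest on few UMIs per nucleus.

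Axon guidance genes encode secreted or membrane-bound cues and the receptors that read them in growing axons and migrating cells. Netrins attract or repel through Dcc and the Unc5 receptors, Slits repel through Robo receptors, semaphorins act through plexins (class 3 semaphorins mostly together with neuropilins), and ephrins signal with Eph receptors in both directions between touching cells. In the midbrain these systems are known for steering dopamine axons toward the forebrain, and several stay expressed in the adult, where they bear on synapses, myelin and glia.

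All 66 genes had at least 1 UMI in the files, and 48 of them, 26 ligands and 22 receptors, reached 20 CPM in at least 1 gate. These were 3 of 3 Slits, 2 of 4 Robo receptors, 2 of 4 netrins, Dcc, 3 of 4 Unc5 receptors, 17 of 20 semaphorins, 8 of 9 plexins, 4 of 8 ephrins and 8 of 13 Eph receptors. The vascular receptor Robo4, the ephrins Efna3 and Efna4, the netrins Ntn3 and Ntn5, and Sema3b and Sema3g were among the 18 genes that stayed lower. The gate of highest mean level is given here for the 48 genes, each time with the share of all genes at 20 CPM or more that had the same highest gate. The dopamine gate was highest for 9 (Slit1, Ntn1, Sema4f, Dcc, Plxna1, Plxna4, Epha4, Epha5 and Epha10; 10.2% of all genes), the Slc26a7/Gad2 gate for 4 (Robo1, Robo2, Sema4g and Epha3; 12.4%), the GABA gate for 8 (Sema3a, Sema6b, Efna5, Efnb3, Unc5d, Plxna2, Plxnc1 and Epha7; 9.68%) and the glutamate gate for 2 (Sema3f and Ephb2; 7.04%). Among glia, the oligodendrocyte gate was highest for 8 (Sema4d, Sema6a, Sema7a, Efna1, Unc5b, Unc5c, Plxnb3 and Ephb1; 14.2%), the precursor gate for 7 (Slit3, Ntn4, Sema3d, Sema3e, Sema5a, Sema5b and Plxna3; 9.23%), the astrocyte gate for 4 (Sema4b, Sema6d, Plxnb1 and Ephb3; 13.5%) and the microglia gate for 6 (Slit2, Sema3c, Sema4a, Sema4c, Efnb2 and Plxnb2; 23.7%). For 31 of the 48 the same gate was highest in all 4 libraries. For 24 (50.0%) the lowest library of the highest gate exceeded every library of the next gate, against 37.7% of the 10430 genes that reached 20 CPM.

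**Figure D1:**
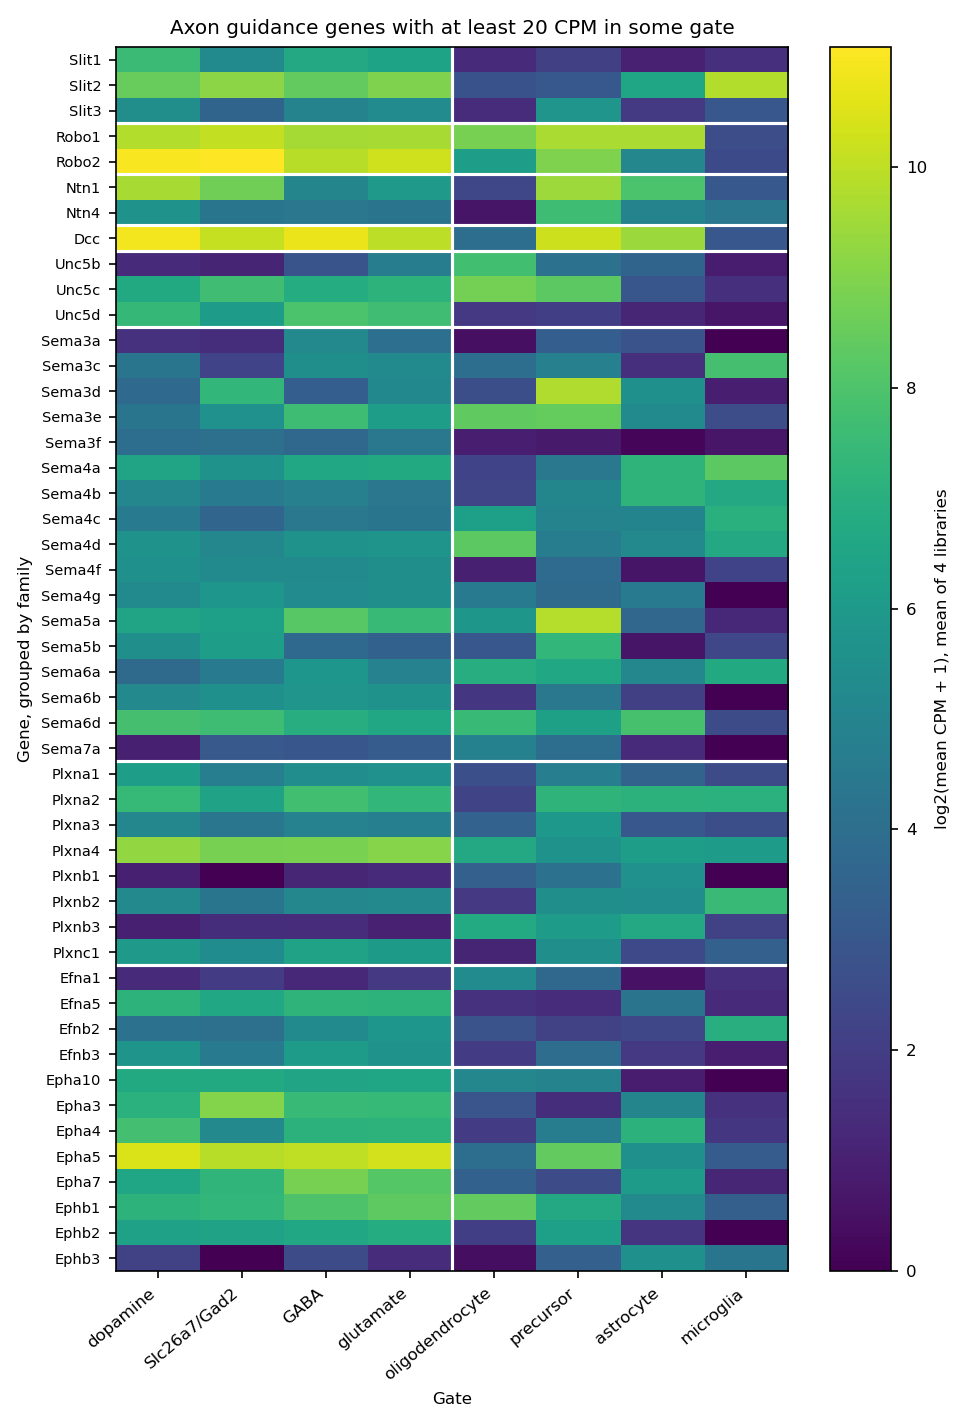
Mean level of the 48 axon guidance genes that reached 20 CPM, as log2(mean CPM + 1) over 4 libraries (colour), by gate (columns, neuron gates left of the white line) and gene (rows, grouped by family). The microglia column is dark for most receptors and bright for Slit2, Sema4a, Sema3c and Plxnb2, while Ntn1 is bright in the dopamine, Slc26a7/Gad2, precursor and astrocyte columns.

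The first comparison asked how dopamine nuclei differ in these genes from the other neurons of the VTA. The ligand Ntn1, which encodes the netrin-1 cue, was many times higher in dopamine nuclei than in GABA or glutamate nuclei, and Sema5b, Ntn4, Sema6d and Slit1 were higher by smaller amounts than the mean of the 2 gates. The semaphorins Sema3a, Sema3e, Sema6a, Sema5a and Sema3c, the ephrin Efnb2 and the receptor Epha7 were lower than that mean. A gene was called where its adjusted p was under 0.05 and its log2 fold change at least 1 in size. Against the mean of the log levels in the GABA and glutamate gates, 6 of 48 tested genes of the set were called higher and 10 lower, where 10.4% of 11029 tested genes were called (4.64% higher and 5.78% lower). The median log2 fold change of the set was -0.03, beside -0.01 over all genes tested. By role, 5 of 25 ligands were called higher and 6 lower, against 1 and 4 of 23 receptors.

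Ntn1 was read at 809.9, 876, 694 and 779.8 CPM in the dopamine gate, 32.4, 49.3, 25.4 and 21.5 in the GABA gate and 80.3, 55.7, 49.8 and 59.9 in the glutamate gate. The lowest dopamine library stood far above the highest library of either other gate, with a log2 fold change of 4.21 ± 0.10 (SE) and an adjusted p of 2.31e-23. In nuclei thinned to 2000 UMIs each, 69.5% ± 3.93 of dopamine nuclei (mean ± SD of 4 libraries) had an Ntn1 UMI, against 4.99% of GABA and 8.47% of glutamate nuclei. Of oligodendrocyte nuclei 0.545% had an Ntn1 UMI after thinning, and whether these came from free RNA was not tested. The unthinned shares were 91.4% in dopamine and 0.783% in oligodendrocyte nuclei, at median depths of 9111.5 and 2402 UMIs.

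Sema5b, a transmembrane semaphorin, was read at 29.8, 30.0, 66.7 and 51.1 CPM in the dopamine gate and at 4.91 to 17.9 in the glutamate gate. Both male libraries were higher than both female ones in dopamine nuclei, and all 4 exceeded the GABA range of 10.7 to 14.9. Its log2 fold change was 2.13 ± 0.25 (adjusted p = 4.05e-08). Ntn4, a netrin of basement membranes, averaged 49.3 ± 7.11 CPM in dopamine nuclei and 20.1 ± 3.30 in GABA nuclei, a log2 fold change of 1.42 ± 0.16 against both other gates. Sema6d, a ligand of plexin-A1, rose by 1.16 on the log2 scale (225 ± 10.8 CPM in dopamine nuclei). Slit1, a Robo ligand, was read at 174, 175, 217 and 182 CPM in the dopamine gate, 102, 124, 80.8 and 98.3 in the GABA gate and 69.9, 118, 76.5 and 75.7 in the glutamate gate. No dopamine library of Slit1 fell below the others' highest value, and its log2 fold change of 1.11 ± 0.11 became 0.95 without male 1, under the fold set for a call.

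Among the ligands that were lower, Sema3a, a secreted repellent, was read at 2.84, 5.22, 0 and 0 CPM in the dopamine gate, 27.7, 30.1, 56.1 and 28.8 in the GABA gate and 8.14, 19.4, 17.1 and 17.0 in the glutamate gate. Neither male dopamine library had a Sema3a UMI. Its log2 fold change was -3.49 ± 0.48 (adjusted p = 6.98e-07). Sema3e, which binds plexin-D1, was read at 17.0, 23.5, 17.3 and 17.0 CPM in the dopamine gate, 213, 243, 151 and 197 in the GABA gate and 58.1, 115, 55.0 and 60.9 in the glutamate gate. Dopamine libraries lay below all others here, and GABA libraries above all glutamate ones, with a log2 fold change of -2.59 ± 0.19 for dopamine nuclei. Smaller decreases were called for Sema6a (-1.56 ± 0.20), Efnb2 (-1.40 ± 0.18), Sema5a (-1.33 ± 0.13) and Sema3c (-1.13 ± 0.24). The last of these was -0.79 without male 1, whose dopamine nuclei gave the lowest Sema3c level of the 4 (24.1, 18.3, 6.90 and 24.9 CPM).

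Of the receptors, Epha7, a receptor for A-class ephrins, was read at 90.8, 92.7, 87.5 and 106 CPM in the dopamine gate, 466, 459, 392 and 456 in the GABA gate and 336, 199, 319 and 276 in the glutamate gate. Dopamine libraries all lay below the others, with a log2 fold change of -1.84 ± 0.13 (adjusted p = 2.22e-12). Unc5b, Epha8 and Ephb6 were also called lower and Robo3 higher, but the mean of the higher side, taken over the GABA and glutamate gates together for the first 3, was under 20 CPM for all 4, which are named only to complete the count. Unc5b alone passed 20 CPM in 1 of those gates, with a mean of 24.3 CPM in glutamate nuclei. The Ephb6 call was lost without female 1 (-0.75), without male 2 (-0.90), with gates 1 UMI stricter (-0.92) and in nuclei of at least 2000 UMIs, where the log2 fold change was just short of 1 in size.

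Taking the other gates singly, with the same dopamine libraries in both comparisons, 5 genes were called higher and 10 lower against GABA nuclei (12.0% of all genes called, 5.4% higher and 6.56% lower), and 7 higher and 10 lower against glutamate nuclei (9.8%, 4.43% higher and 5.37% lower). Robo2, a Slit receptor, was read at 2143, 1833, 1945 and 2132 CPM in the dopamine gate and 914, 809, 998 and 1086 in the GABA gate, a log2 fold change of 1.15 ± 0.08. Its level in the glutamate gate was between the 2 (1205, 1212, 1352 and 1287 CPM), and that difference from dopamine nuclei missed the fold set for a call. Slit1 against GABA nuclei (0.97 ± 0.12) and Sema5a against glutamate nuclei (-0.97 ± 0.14) also missed that fold, and each was called against the other gate. Dcc, the main netrin receptor, was the reverse case: dopamine (1928, 1808, 1893 and 2042 CPM) and GABA nuclei (1774, 2042, 1567 and 1578) overlapped, whereas the glutamate gate was lower (1018, 1056, 867 and 1042), with a log2 fold change of 1.02 ± 0.09 between dopamine and glutamate nuclei that fell to 0.96 without male 1 and to 0.96 with no filter on low counts. Ephb1, an ephrin-B receptor, was lower in dopamine than in glutamate nuclei (-1.11 ± 0.13, and -0.91 without male 2), as was Sema3d (-1.36 ± 0.26). Sema6d against GABA nuclei was 0.97 with no filter. Without male 1, Sema6d was 0.89 against GABA nuclei and Sema3c was -0.80 there and -0.78 against glutamate nuclei. Without female 1, the calls of Unc5b, Epha8 and Ephb6 against GABA nuclei and of Sema6a against glutamate nuclei were lost. Without female 2, those of Unc5b and Epha8 against GABA nuclei and of Sema3c against glutamate nuclei were lost, and without male 2 that of Ephb6 against GABA nuclei. Against GABA nuclei, the Ephb6 call was also lost with stricter gates and the Unc5b call without the library block.

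**Figure D2:**
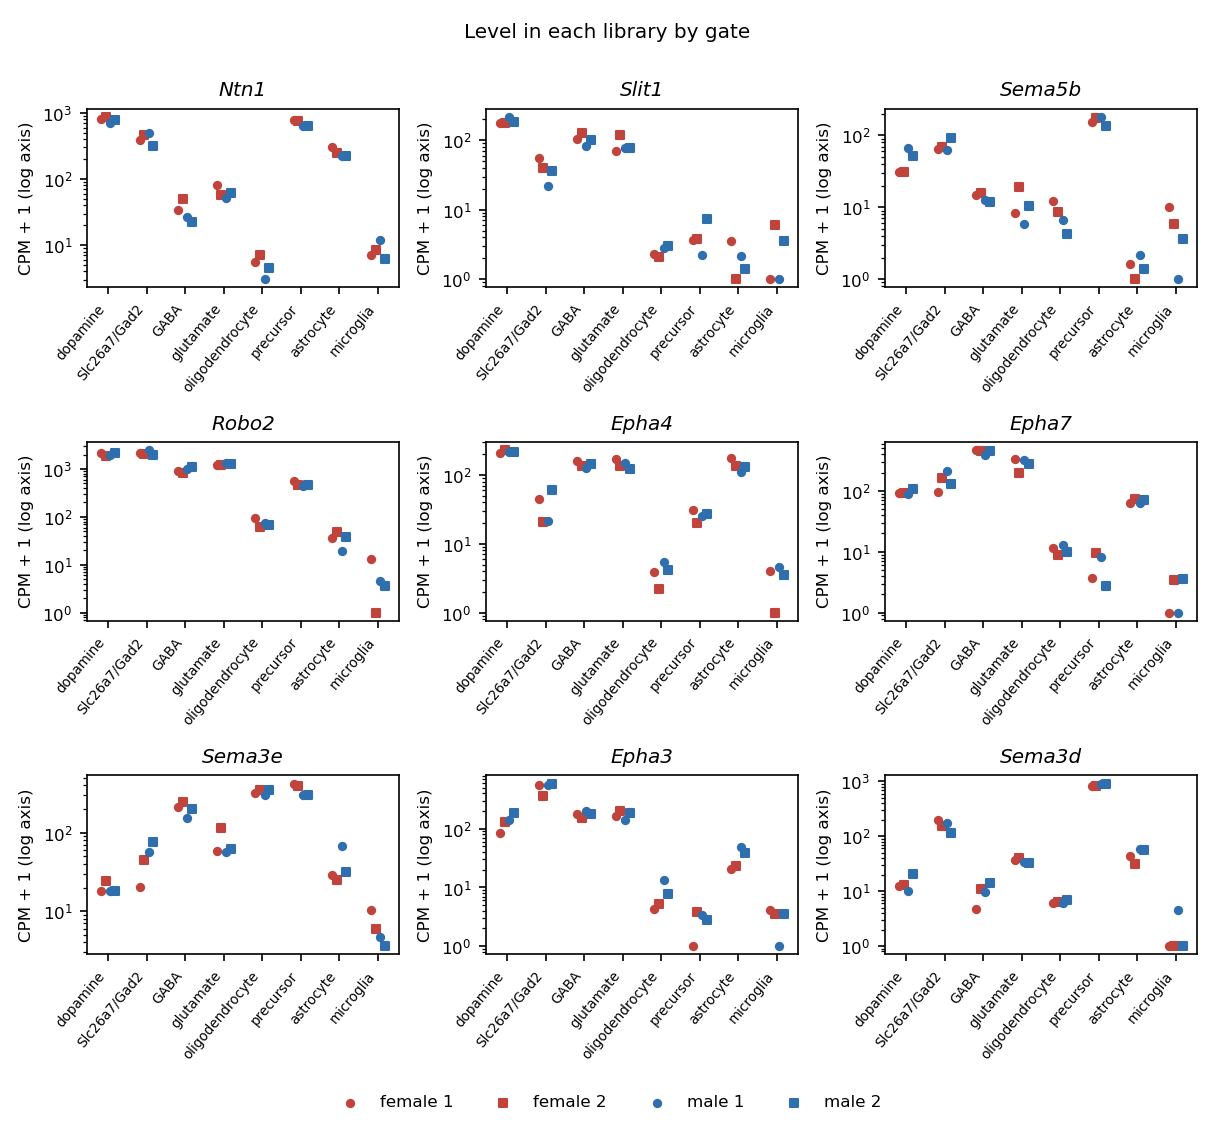
Level of 9 genes in each library (CPM + 1, log axis) by gate; circles and squares are replicates 1 and 2, red female and blue male. Ntn1 in the dopamine gate sits near the precursor gate and more than 10 times above GABA and glutamate nuclei, and Sema3d and Epha3 in the Slc26a7/Gad2 gate stand above the other neuron gates.

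The second comparison was between the Slc26a7/Gad2 nuclei and the dopamine nuclei. Relative to dopamine nuclei, the Slc26a7/Gad2 nuclei had more of the ligand Sema3d and of the receptor Epha3, and less of the ligands Slit1, Slit3, Ntn4, Efnb3 and Ntn1 and the receptors Epha4, Plxna1, Plxna2 and Unc5d. In counts, 3 of 48 genes were called higher and 10 lower, where 8.9% of all genes were called (3.83% higher and 5.08% lower). The median log2 fold change of the set was -0.56, beside -0.03 over all genes. The dopamine libraries are the same as in the first comparison, 19 nuclei that passed both gates were placed with dopamine, and 36 that passed both the Slc26a7/Gad2 and the glutamate gates were placed with Slc26a7/Gad2.

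Sema3d, a secreted class 3 semaphorin, was read at 201, 153, 173 and 114 CPM in the Slc26a7/Gad2 gate and 11.3, 11.8, 9.21 and 19.7 in the dopamine gate. Every Slc26a7/Gad2 library was above every dopamine, GABA and glutamate library, with a log2 fold change over dopamine nuclei of 3.55 ± 0.29 (adjusted p = 1.25e-10). Epha3 was read at 564, 355, 559.8 and 587 CPM against 85.1, 129, 138 and 187 in dopamine nuclei. The groups did not overlap, female 2 was the lowest of the Slc26a7/Gad2 libraries, and the log2 fold change was 1.89 ± 0.17 (adjusted p = 1.26e-09). After thinning to 2000 UMIs, 46.4% ± 9.39 of Slc26a7/Gad2 nuclei and 19.1% ± 4.21 of dopamine nuclei had an Epha3 UMI. Sema3e was called higher by 1.34 ± 0.37, but its values of 19.6, 44.4, 55.3 and 74.4 CPM overlapped the dopamine range of 17.0 to 23.5. The Sema3e call was lost without male 2 (0.90), when nuclei in several gates were left out (0.46), and without the library block in the fit (1.36, adjusted p = 0.0553).

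Epha4, a receptor for ephrins of both classes, was read at 44.1, 19.7, 20.7 and 58.7 CPM in the Slc26a7/Gad2 gate and 209.9, 228, 213 and 214 in the dopamine gate. The 2 ranges were far apart, with a log2 fold change of -2.54 ± 0.23 (adjusted p = 9.23e-10). Slit1 was likewise separate, at 53.9, 39.4, 20.7 and 35.2 CPM against 174 to 217, a log2 fold change of -2.34 ± 0.26. Slit3 (-1.96 ± 0.47), Ntn4 (-1.54 ± 0.36), Plxna1 (-1.44 ± 0.28), Unc5d (-1.24 ± 0.25), Plxna2 (-1.17 ± 0.20) and Efnb3 (-1.16 ± 0.29) were lower as well. With the Slc26a7 requirement lowered to 1 UMI, Unc5d was -0.18, Efnb3 -0.63 and Plxna2 -0.74, none of them called, and Efnb3 was -0.97 when nuclei in several gates were left out. Ntn1 was read at 387, 463, 491 and 309 CPM, below all dopamine libraries and above all GABA and glutamate ones. Its log2 fold change from dopamine nuclei was -1.02 ± 0.14, and missed the fold set for a call without female 1 (-0.98), without male 2 (-0.89), with DESeq2's test (-0.98), narrowly with its size factors, and when nuclei in several gates were left out (-0.88). Robo3, the Robo receptor of commissural axons, had 0 UMIs in this gate in all 4 libraries and 9.17 to 15.6 CPM in dopamine nuclei. Counting 3 UMIs over the gate as its floor, Robo3 was at least 3.64-fold lower there. The Robo3 call was lost with gates 1 UMI stricter (-1.10, adjusted p = 0.457).

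**Figure D3:**
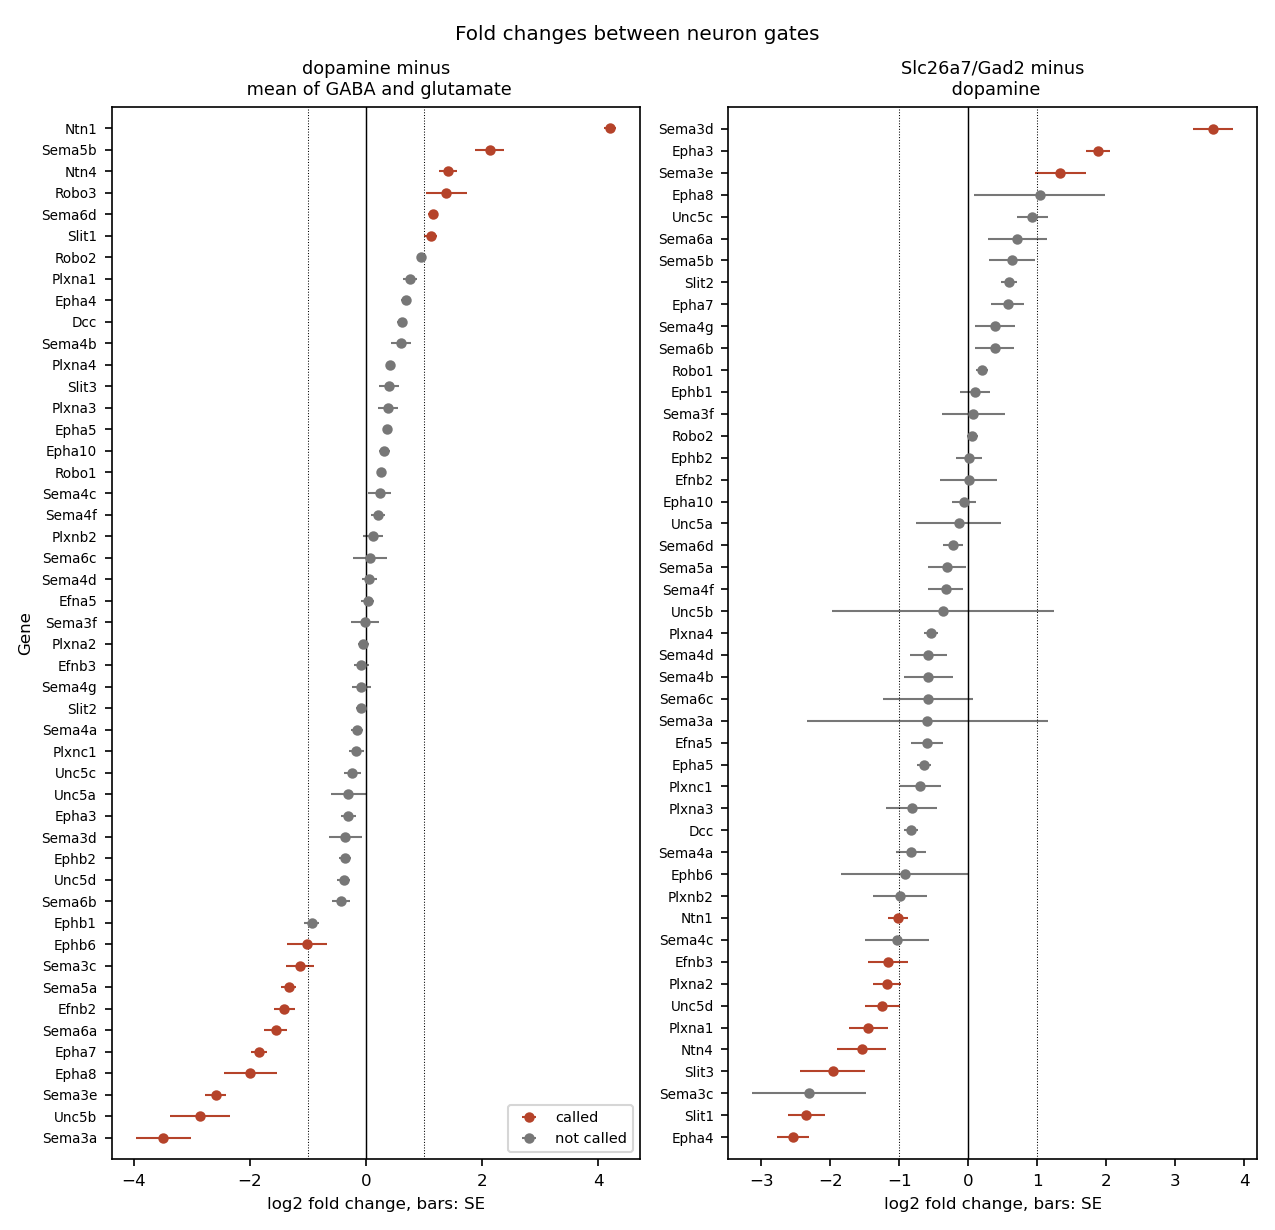
Log2 fold changes (points) with standard errors (bars) of the tested genes between dopamine nuclei and the mean of GABA and glutamate nuclei (left) and between Slc26a7/Gad2 and dopamine nuclei (right, without Robo3, which had no UMI there); red genes were called and dotted lines mark a log2 fold change of 1 in either direction. Ntn1 at 4.21 stands alone on the left, and on the right Sema3d at 3.55 and Epha3 at 1.89 lie opposite Epha4 at -2.54 and Slit1 at -2.34.

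GABA and glutamate nuclei, compared next, differed in 5 of 48 genes, 3 higher and 2 lower in GABA nuclei, beside 3.62% of all genes (1.93% higher and 1.69% lower). Sema3e (1.53 ± 0.11) and Sema3a (1.25 ± 0.19, and 0.97 with gates 1 UMI stricter) were higher in GABA nuclei, and Robo3 too, under 20 CPM. Sema3d (-2.02 ± 0.20) and Unc5b (-1.89 ± 0.23) were higher in glutamate nuclei. Unc5b, a repulsive netrin receptor, was read at 28.4, 9.69, 30.4 and 28.9 CPM there and 8.96, 4.30, 8.58 and 3.39 in GABA nuclei. Its female 2 value was the lowest glutamate library by far but still above the GABA range. Dcc, Robo1, Robo2 and every tested ephrin, plexin and Eph receptor missed a call between these gates.

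Neurons were then compared with glia. Over the 4 neuron gates against the 4 glial gates, each weighted equally on the log scale, 34 of 56 tested genes were called higher in neurons and 7 lower, beside 36.0% of all genes called (21.8% higher and 14.1% lower), and the median was 1.88 (1.65 with genes that had no UMI in a gate placed at a floor of 3 UMIs there), against -0.004 over all genes. The highest fold changes were for the receptor Unc5d (6.20 ± 0.27), Slit1 (5.35 ± 0.26), the ephrin Efna5 (5.17 ± 0.21) and Epha3 (5.11 ± 0.16), followed by Robo2 (4.72 ± 0.08), Epha5 (4.75 ± 0.10) and Epha7 (4.36 ± 0.16). Unc5d was read at 203 to 317 CPM in GABA nuclei and averaged at most 3.21 CPM in any glial gate. Plxnb3 (-5.22 ± 0.51), Sema4c (-1.88 ± 0.11), Sema6a (-1.84 ± 0.10) and Unc5b (-1.84 ± 0.84) were lower in neurons. Unc5b averaged 212 CPM in oligodendrocyte nuclei, but its next highest gate was glutamate (24.3 CPM), above the other glial gates. Plxnb3, a plexin known from the oligodendrocyte lineage, averaged 107 CPM in oligodendrocyte, 102 in astrocyte and 69.2 in precursor nuclei, and at most 1.73 in any neuron gate. The Unc5b call was lost in nuclei of at least 2000 UMIs (-0.94, adjusted p = 0.992), with DESeq2's size factors (-1.80, adjusted p = 0.0501), without male 2 (-1.67) and without female 1. Another 4 called genes (Efnb2, Sema5a, Sema5b and Unc5c) were higher in neurons on the log scale but lower by plain means of CPM, each with 1 or 2 glial gates high and the others low. Sema6b, Ephb2 and Epha10 were also called higher, but each had no UMI in the microglia gate, so their fitted values depend on the prior count.

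Each glial gate was then compared with the mean log level of the other 3 glial gates, so that the 4 comparisons share their libraries. Microglia had few of the receptors and a group of their own ligands, precursors had more of 27 of the 46 genes tested, oligodendrocytes had Unc5b, Unc5c, Sema4d and Ephb1, and astrocytes had Epha4, Plxnb1 and Sema4b. Calls were frequent over all genes in these comparisons, and the counts below are to be read against those shares.

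In microglia, 9 of 46 tested genes were called higher and 25 lower, beside 41.0% of 11157 tested genes called (17.3% higher and 23.7% lower). The set's median log2 fold change was -3.11, or -1.52 with the 9 genes that had no microglial UMI placed at a floor of 3 UMIs over the gate, beside -0.10 over all genes. Of 23 receptors tested, 17 were lower and 3 higher, against 8 and 6 of 23 ligands. Slit2, a Robo ligand, was read at 601, 1141, 1054 and 752 CPM in the microglia gate, 69.0, 33.2, 173 and 94.4 in the astrocyte gate and 7.02, 7.10, 5.96 and 3.64 in the oligodendrocyte gate. Each microglia library lay above every library of the other glial gates, with a log2 fold change of 5.82 ± 0.18 (adjusted p = 2.05e-25). Neuron gates also had Slit2. All 4 microglia libraries exceeded the glutamate range of 458 to 501 CPM but overlapped the Slc26a7/Gad2 range of 488 to 802. Of microglia thinned to 2000 UMIs, 60.5% ± 9.88 had a Slit2 UMI, against 0.735% of oligodendrocytes, although only 176 microglia had that depth (unthinned, 52.8% at a median of 1356.5 UMIs against 1.21% at 2402).

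Efnb2, the ephrin-B2 ligand, was read at 145, 78.8, 139 and 129 CPM in the microglia gate and averaged at most 6.23 in the other glial gates, a log2 fold change of 4.77 ± 0.20. Sema3c, a secreted semaphorin, was read at 244, 293, 204 and 170.5 CPM, above the highest precursor library (23.6 to 32.2), with a log2 fold change of 4.56 ± 0.16. Sema4a, a transmembrane semaphorin of immune cells, was read at 333, 293, 368 and 274 CPM against 166, 146, 148 and 122 in the astrocyte gate, and these ranges did not overlap. Its log2 fold change was 3.82 ± 0.12. The receptor Plxnb2, a plexin for class 4 semaphorins, was read at 179, 177, 215 and 155 CPM and rose by 3.40 ± 0.14. Sema4b (1.92 ± 0.16), Sema4c (1.64 ± 0.14) and Plxna2 (1.61 ± 0.16) were higher by less, and the astrocyte gate was above the microglia gate for Sema4b (131 to 163 against 93.6 to 114 CPM). For Plxna2 the microglia mean of 133 CPM was below those of precursors (146) and astrocytes (139) and above that of oligodendrocytes (3.90). The ninth call was Ephb3, which was higher than the mean log level of the other gates but lower than their plain mean.

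Several receptors of the other glia were near 0 in the microglia gate. Robo1, a Slit receptor, was read at 3.08, 4.93, 7.30 and 5.17 CPM in microglia and 759.8 to 906 in astrocytes. Dcc was read at 12.3, 9.86, 3.65 and 2.58 CPM in microglia against 563 to 784 in astrocytes and 1114 to 1366 in precursors. The log2 fold changes were -7.08 ± 0.23 and -4.99 ± 0.30. Plxnb1, Sema4g, Epha10 and Ephb2 had no UMI in 4 of 4 microglia libraries. With 3 UMIs as the floor over the gate, Plxnb1 was at least 11.6-fold, Ephb2 at least 12.5-fold, Epha10 at least 9.94-fold and Sema4g at least 9.38-fold lower than the plain mean CPM of the other glial gates. On the comparison's own scale, the mean of log levels, the log2 differences at that floor were -3.21, -1.91, -2.14 and -3.18. The oligodendrocyte and astrocyte means of Ephb2 (3.19 and 2.23 CPM) lay near the floor of 2.16 CPM, so its bound rests on precursors.

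Precursors had 27 of 46 genes called higher and 6 lower, beside 29.8% of all genes (18.9% higher and 10.9% lower), and the median was 1.93 (1.71 with that floor), beside -0.05 over all genes. Both roles took part, with 13 of 23 ligands and 14 of 23 receptors higher. Of the 27, Efna1, Epha4, Plxnb1 and Sema4g were lower in precursors by plain means of CPM. Sema3d was read at 818, 818, 909 and 907 CPM in the precursor gate, 42.6, 30.1, 56.8 and 55.9 in the astrocyte gate and 5.17, 5.46, 5.14 and 5.79 in the oligodendrocyte gate. All precursor libraries stood above every library of each other gate, neurons included, and the log2 fold change was 7.09 ± 0.11 (adjusted p = 3.16e-34). Sema5a, a transmembrane semaphorin, was read at 919, 867, 929.7 and 1027 CPM against 70.6, 51.4, 43.0 and 62.2 in oligodendrocytes, a log2 fold change of 6.43 ± 0.11. Thinned to 2000 UMIs, 76.6% ± 2.86 of precursors had a Sema3d UMI and 78.2% ± 0.563 a Sema5a UMI, against 0.792% and 8.04% of oligodendrocytes (unthinned, 81.2% and 84.1% of precursors at a median of 2796.5 UMIs and 1.12% and 9.47% of oligodendrocytes at 2402).

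Netrin genes and Dcc were high in precursors and low in oligodendrocytes. Ntn1 was read at 765, 744, 630.2 and 642 CPM in precursors and 4.62, 6.14, 2.06 and 3.48 in oligodendrocytes, and precursor and dopamine libraries overlapped. Ntn4 was read at 209, 216, 178 and 181 CPM in precursors and averaged 0.551 in oligodendrocytes. Dcc was read at 1114, 1366, 1133 and 1194 CPM in precursors and 14.2, 14.5, 22.4 and 9.77 in oligodendrocytes. Against the other 3 glial gates the log2 fold changes of Ntn1, Ntn4 and Dcc in precursors were 5.02 ± 0.10, 4.63 ± 0.16 and 4.73 ± 0.11. Sema5b (5.87 ± 0.20) and Robo2 (4.32 ± 0.12) were higher too. Ephb2, an ephrin-B receptor, was read at 63.6, 83.2, 68.6 and 85.8 CPM in precursors and averaged 3.19 in oligodendrocytes and 2.23 in astrocytes, with no UMI in microglia. Sema6b and Epha10, which had no microglial UMI either, averaged 20.8 and 29.8 CPM in precursors, and Epha10 averaged 33.7 CPM in oligodendrocytes. Slit2 (-3.57 ± 0.37), Efnb2 (-2.21 ± 0.32), Sema4d (-2.20 ± 0.15), Sema4a (-1.57 ± 0.17) and Sema4c (-1.29 ± 0.14) were lower.

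Promoters of some genes with large increases in the microglia and precursor comparisons are printed, so that their sequences can be compared. RefSeq's table for the build GRCr8 matched 51 of the 66 genes by symbol, and the windows are the 250 bases before each gene's start, on the gene's strand. Searched motifs, on both strands, were the core GAGGAA of PU.1, a myeloid transcription factor, for microglia and the core ACAAAG of SOX factors for precursors, and matches are in capitals. Against the other glial gates, Sema3c (chr4:18699628-18699877) and Sema4a (chr2:176212259-176212508) were higher in microglia and Sema3d (chr4:23460972-23461221) and Ephb2 (chr5:154360425-154360674) in precursors. All 4 windows are on the minus strand. Over all gates Ephb2 was not highest in precursors, where it averaged 75.3 CPM, against 116 in glutamate and 98.6 in GABA nuclei.
Sema3c: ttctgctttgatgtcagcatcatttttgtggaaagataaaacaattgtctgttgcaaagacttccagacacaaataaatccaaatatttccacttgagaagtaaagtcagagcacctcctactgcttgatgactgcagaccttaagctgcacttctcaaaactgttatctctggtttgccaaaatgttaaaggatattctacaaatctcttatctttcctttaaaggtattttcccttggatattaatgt
Sema4a: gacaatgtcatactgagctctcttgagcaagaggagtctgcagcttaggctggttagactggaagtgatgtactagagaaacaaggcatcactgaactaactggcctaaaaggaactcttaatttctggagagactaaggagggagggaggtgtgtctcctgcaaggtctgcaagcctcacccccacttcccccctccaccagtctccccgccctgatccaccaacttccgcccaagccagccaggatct
Sema3d: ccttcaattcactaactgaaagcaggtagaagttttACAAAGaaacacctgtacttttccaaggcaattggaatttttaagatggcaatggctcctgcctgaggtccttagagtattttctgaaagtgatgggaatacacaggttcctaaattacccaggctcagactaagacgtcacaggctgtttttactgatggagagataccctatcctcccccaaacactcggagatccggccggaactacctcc
Ephb2: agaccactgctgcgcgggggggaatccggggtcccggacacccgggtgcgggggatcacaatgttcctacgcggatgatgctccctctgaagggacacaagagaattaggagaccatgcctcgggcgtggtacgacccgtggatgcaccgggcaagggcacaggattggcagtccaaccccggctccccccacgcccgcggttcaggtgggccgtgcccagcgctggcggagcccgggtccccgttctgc
Each window was searched for the motif of its own gate only. The SOX core was in the Sema3d window once and not in the Ephb2 window, and the PU.1 core was in neither the Sema3c nor the Sema4a window. PU.1's core was in 1 of the 7 matched genes that were higher in microglia by the naming rule, and in 23.3% of 33469 windows of this length. For the SOX core the numbers were 1 of 16 genes higher in precursors and 16.3% of windows. The GC content was 35.2% in the Sema3c window, 53.2% in Sema4a, 44.8% in Sema3d and 68.4% in Ephb2. Of the other genes with large increases, Slit2 had no matched window and Sema5a is not printed. The Efnb2 window, not printed either, did not hold the PU.1 core and had a GC content of 80.4%.

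Mature oligodendrocytes had 14 of 46 genes called higher and 15 lower, beside 32.7% of all genes (15.1% higher and 17.6% lower). Robo1 and Sema5a were among the higher calls but lower by plain means of CPM, and both calls were lost with doublets kept (0.84 and 0.88). Unc5b was read at 211, 191, 246 and 198 CPM and at 12.3 to 19.7 in precursors. Every oligodendrocyte library was above every other gate's, neurons included, and the log2 fold change was 5.44 ± 0.13 (adjusted p = 5.25e-29). Unc5c, the other Unc5 receptor of this gate, was read at 414, 482, 405 and 463 CPM against 328, 310.0, 308 and 289.6 in precursors and averaged 6.73 in astrocytes, a log2 fold change of 4.90 ± 0.12. After thinning, 33.4% ± 3.64 of oligodendrocytes had an Unc5b UMI and 54.3% ± 3.40 an Unc5c UMI, against 1.83% and 0.844% of astrocytes (unthinned, 42.2% and 57.8% at a median of 2402 UMIs against 3.33% and 1.54% at 3310.0).

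Sema4d, a ligand of B-class plexins, was read at 292, 249, 414 and 286 CPM in oligodendrocytes and 117, 93.6, 94.8 and 103 in microglia, without overlap. Its log2 fold change was 2.88 ± 0.08. Ephb1 (3.55 ± 0.12), Efna1 (4.34 ± 0.25), Sema3e (3.17 ± 0.15) and Sema6d (2.10 ± 0.12) were also higher on the log scale. For Sema6d every astrocyte library (215 to 255 CPM) was above every oligodendrocyte library (167 to 183). Sema3e was read at 318, 346, 303 and 344 CPM in oligodendrocytes and 421, 394, 304 and 305 in precursors, so these gates overlapped. Sema7a, a membrane-anchored semaphorin, averaged 28.0 ± 2.90 CPM, against 15.0 ± 4.09 in precursors and no UMI in microglia. Ntn4 (-6.40 ± 0.36), Ephb3 (-5.73 ± 0.35), Plxna2 (-5.01 ± 0.15), Sema4a (-4.63 ± 0.16), Plxnb2 (-4.56 ± 0.15) and Ntn1 (-4.54 ± 0.36) were lowest against the other glia.

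In astrocytes, 19 of 46 genes were called higher and 14 lower, beside 31.6% of all genes (19.3% higher and 12.3% lower). Among the higher calls, Ntn4, Sema3d and Slit2 were lower by plain means of CPM, and these calls were lost with doublets kept (0.85, 0.78 and 0.63). Epha4 was read at 173, 134, 109 and 131 CPM and at 30.4, 18.9, 24.1 and 25.9 in precursors, a log2 fold change of 4.69 ± 0.16 against the other glial gates. Plxnb1, a receptor of Sema4d, was read at 48.9, 50.1, 43.1 and 51.0 CPM and 18.8, 13.2, 24.1 and 12.5 in precursors. Sema4b was read at 154, 131, 163 and 134 CPM and was higher than in microglia in each library, with a log2 fold change of 2.61 ± 0.10. Astrocytes also had Dcc at 721, 563, 784 and 628 CPM and Robo1 at 845, 759.8, 769.6 and 906, with log2 fold changes of 3.75 ± 0.12 and 2.76 ± 0.12 against a mean that the low microglial levels enter, although precursors were above astrocytes for Dcc and overlapped them for Robo1. Epha7 (4.07 ± 0.21), Ephb3 (3.62 ± 0.20), Epha3 (3.46 ± 0.26) and Sema6d (2.53 ± 0.11) were higher, and Sema5b (-4.99 ± 0.67), Sema3c (-4.39 ± 0.26), Unc5c (-3.45 ± 0.60), Sema5a (-1.85 ± 0.58) and Efnb2 (-1.75 ± 0.29) lower. The Sema5a call was lost without female 1 (-1.48) and without female 2 (-1.68).

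**Figure D4:**
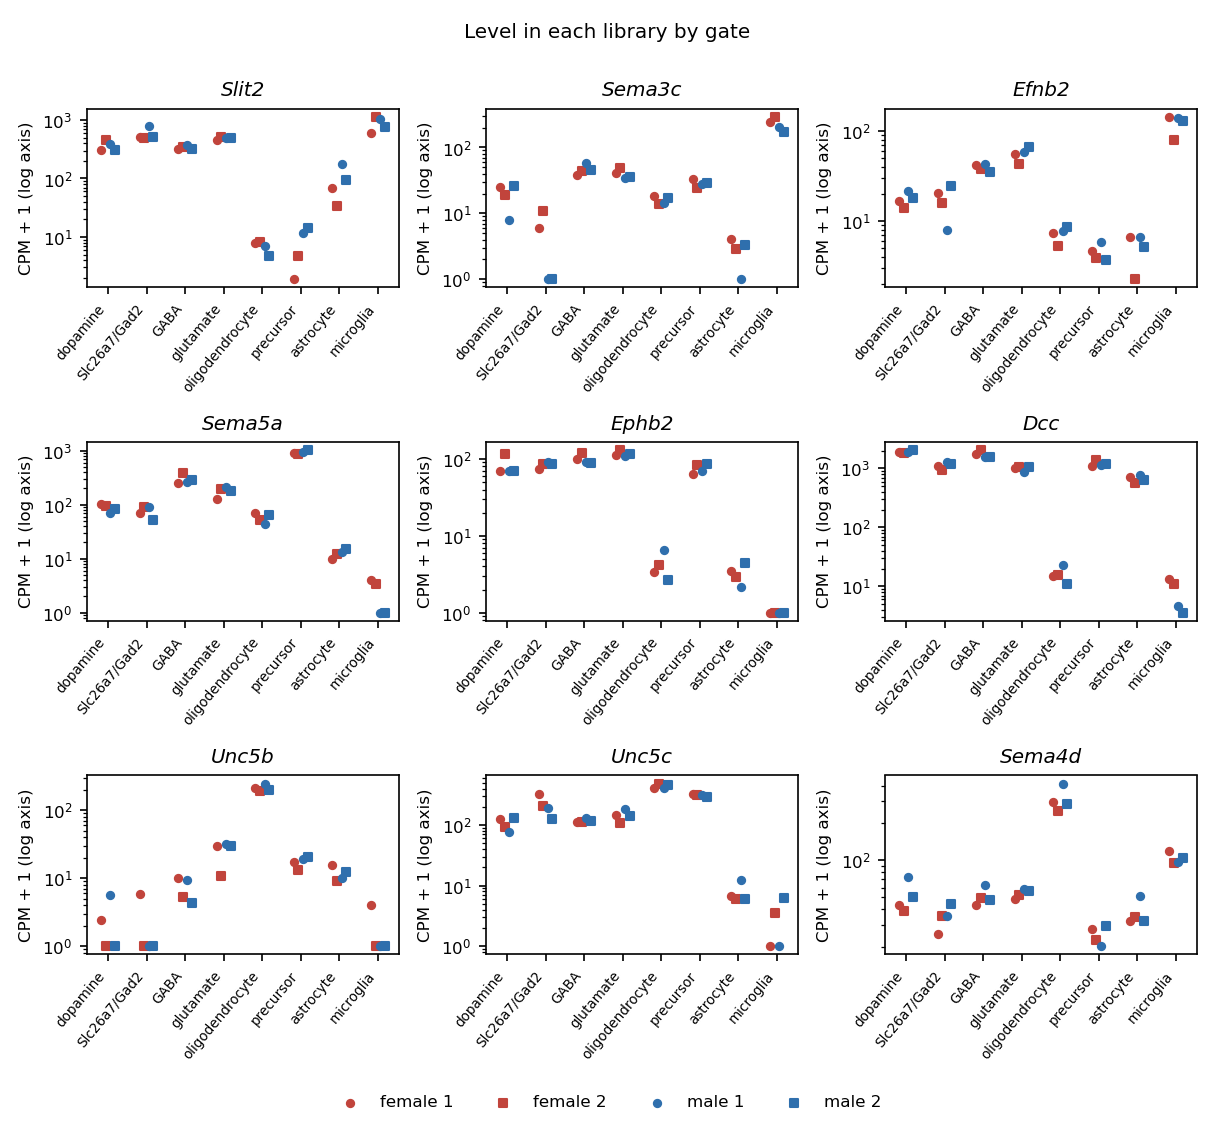
Level of 9 genes in each library (CPM + 1, log axis) by gate; circles and squares are replicates 1 and 2, red female and blue male. Slit2, Sema3c and Efnb2 peak in microglia, Sema5a in precursors, and Unc5b, Unc5c and Sema4d in oligodendrocytes, while Dcc is low only in the oligodendrocyte and microglia gates.

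Known ligand and receptor partners can be set side by side by gate, without comparing the levels of different genes. Ntn1 was highest in dopamine and precursor nuclei, and its receptor Dcc was at 1808 to 2042 CPM in the first and 1114 to 1366 in the second. The repulsive receptors Unc5b and Unc5c were highest in oligodendrocytes, where Ntn1 was at 2.06 to 6.14. Unc5c was also at 290 to 328 CPM in precursors, where Ntn1 was at 630 to 765. Slit2 was highest in microglia, where Robo1 and Robo2 averaged 5.12 and 4.64 CPM, and Slit1 was highest in dopamine nuclei, where Robo1 and Robo2 averaged 894 and 2013. Slc26a7/Gad2 nuclei had Slit2 at 488 to 802 CPM together with the highest mean levels of Robo1 (1064) and Robo2 (2174). Sema4d was highest in oligodendrocytes and its receptor Plxnb1 in astrocytes, with 7.12 to 11.7 CPM in oligodendrocytes. For Sema3e, highest in precursors and oligodendrocytes, the receptor Plxnd1 averaged at most 8.70 CPM in any gate. Efna5, an ephrin-A, was at 113 to 166 CPM in dopamine nuclei and averaged at most 18.4 in glia, and its receptor Epha5 was at 1216 to 1653 in dopamine nuclei and averaged at most 344 in glia.

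The class 3 semaphorin coreceptors Nrp1 and Nrp2 and 47 other genes that act with these cues were examined as a list beside the set. Dopamine nuclei were lower than the mean of GABA and glutamate nuclei for 6 of 47 tested and higher for 2, beside 5.78% and 4.64% of all genes. Nrp1 (-1.82 ± 0.18; 26.9, 79.6, 43.7 and 44.6 CPM) and Nrp2 (-1.88 ± 0.14; 78.0, 30.0, 41.4 and 38.0 CPM) fell together with the ligands Sema3a, Sema3c and Sema3e, as did the guanine nucleotide exchange factor Ngef (-2.23 ± 0.27), and Nrcam, a cell adhesion molecule, and Mical2, an actin oxidase, rose (1.40 ± 0.06 and 1.55 ± 0.11). Slc26a7/Gad2 nuclei had more Ntng1, the membrane-anchored netrin-G1 (2.37 ± 0.18 over dopamine nuclei), and Vav3 (1.45 ± 0.13), and less Mical2 (-2.84 ± 0.29), Nrp1 (-2.34 ± 0.62) and Dpysl5 (-1.32 ± 0.16), with 2 of 47 higher and 5 lower, beside 3.83% and 5.08% of all genes. Between GABA and glutamate nuclei, where 1.93% of all genes were higher and 1.69% lower, 2 of 47 were higher (Rgma, 1.01 ± 0.10, and Vav2, 1.09 ± 0.12) and 2 lower (Ntng2, -3.52 ± 0.30, and Ntng1, -1.32 ± 0.15). In microglia 10 of 45 were higher and 28 lower, beside 17.3% and 23.7% of all genes, led by Srgap2, a Slit-Robo GTPase-activating protein, at 7581, 7539.8, 7898 and 7069 CPM (5.57 ± 0.07), and by Lrrc4c, the netrin-G1 ligand, on the lower side (-7.64 ± 0.24). Cntn2 led in oligodendrocytes (7.68 ± 0.15), where 13 of 45 were higher and 17 lower, beside 15.1% and 17.6%. Dscam, a further netrin receptor, led in precursors (6.40 ± 0.10), where 22 were higher and 7 lower, beside 18.9% and 10.9%. Ngef, Vav3 and Rgma led in astrocytes (5.62 ± 0.29, 5.49 ± 0.09 and 5.06 ± 0.10), where 23 were higher and 8 lower, beside 19.3% and 12.3%. Of 48 tested between neurons and glia 25 were higher and 5 lower, beside 21.8% and 14.1% of all genes, from Ntng1 (6.08 ± 0.15) to Dock1 (-4.04 ± 0.13).

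Between the sexes no gene of the set was called in any gate (female against male sums, edgeR's quasi-likelihood test, adjusted p under 0.05 with no limit on the fold). With 2 libraries per sex, 11 to 52 genes of the set could be tested per gate. The share of all tested genes that were called was 0.0671% in the dopamine, 0.0847% in the Slc26a7/Gad2, 0.0937% in the GABA, 0.0556% in the glutamate, 0.0514% in the oligodendrocyte, 0.125% in the precursor, 0.098% in the astrocyte and 0.0875% in the microglia gate. At an unadjusted p under 0.05 the genes of the set numbered 5 of 40 (all genes 408 of 8941) in the dopamine, 2 of 24 (all genes 202 of 4724) in the Slc26a7/Gad2, 6 of 52 (all genes 811 of 11741) in the GABA and 0 of 52 (all genes 408 of 12592) in the glutamate gate. Among glia they numbered 5 of 45 (all genes 1050 of 11665) in the oligodendrocyte, 3 of 42 (all genes 606 of 9603) in the precursor, 8 of 34 (all genes 378 of 10208) in the astrocyte and 2 of 11 (all genes 256 of 5712) in the microglia gate. DESeq2 called none. The smallest p was that of Slit2 in astrocytes, which was read at 69.0, 33.2, 173 and 94.4 CPM. Both male libraries were above both female ones, but the log2 fold change, female minus male, of -1.29 ± 0.28 had an adjusted p of 0.133. The call appeared with no filter on low counts (-1.28), with gates 1 UMI stricter (-1.45) and with replicate numbers as a block (-1.38). It also appeared without female 1 (-1.89), male 1 (-0.90) or male 2 (-1.70), and not without female 2. It was absent too with DESeq2's test or size factors and with doublets kept. The same held when nuclei in several gates were left out and in nuclei of at least 2000 UMIs. Sema5b in dopamine nuclei also had both males above both females (29.8, 30.0, 66.7 and 51.1 CPM; -0.99 ± 0.28, adjusted p = 0.782). The test of whether a sex difference depended on the gate called 0 of the set, beside 0.203% of 12338 genes.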

How the data were processed

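Single-nucleus 3′ RNA-seq gave 1 table per library of raw UMI counts per gene and nucleus, deposited by the authors. Per the submitters' processing notes these counts were made with Cell Ranger on the genome build rn6, and per the file headers the matrices were written by software version 3.0.2. The sources used here do not name the annotation or say whether intronic reads were counted. No sample columns were left unused.

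From these counts, barcodes with under 200 genes or over 5% of UMIs from 13 mitochondrial genes (6 of 21606) and the 980 (4.54%) with the highest Scrublet scores (scanpy 1.11.5, 0.8% per 1000 barcodes of a library; the caller's own threshold gave 473) were removed. Libraries shared 36 barcode sequences, counted over library pairs. Nuclei passing several neuron gates took the first in the order dopamine, Slc26a7/Gad2, GABA, glutamate, and those passing a neuron and a glial gate, or 2 glial gates, were left out. UMIs were summed per gate and library and tested with edgeR 4.0.16 (R 4.3.3; quasi-likelihood test, TMM scaling, filterByExpr, the library as a block between gates, Benjamini-Hochberg adjustment over all genes tested). Standard errors were derived from the fold change and F. Alternatives were DESeq2 1.42.0 and its size factors, no filter, doublets kept, exclusive or stricter gates, nuclei of at least 2000 UMIs, no block, and each library left out. On simulated counts (dispersion 0.05) with 200 genes of at least 200 UMIs changed by a log2 fold change of 2, 99.5% were recovered for dopamine against the mean of GABA and glutamate nuclei (10936 genes), 94.5% for astrocytes against the other glia (10734 genes), 91% for neurons against glia (11648 genes) and 97% for the sexes in GABA nuclei (11847 genes, with 11 false calls, 5.37% of the calls). The sexes in the other gates and the other comparisons between gates were not simulated, among them Slc26a7/Gad2 against dopamine nuclei and microglia against other glia. Smaller changes, and changes in genes of fewer UMIs, were not simulated either, so recovery there is not known. P-values between gates rest on the spread that remains after the library block, and those between the sexes on the spread between libraries of the same sex. The precision of a level depends on the spread between libraries and on its UMIs, which come from 93 nuclei in the smallest gate.

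The genes, gates and lists were chosen with earlier results of these data known. Named genes are, per comparison and direction, up to 10 called genes of the set with the largest fold change among those with at least 20 CPM on the higher side and the same direction in 4 of 4 libraries, up to 3 other pathway genes, and every gene's highest gate. Other genes are named after their values were seen, namely those listed as under 20 CPM, those compared as partners, and Slit2 and Sema5b between the sexes. Of 50 other pathway genes listed 49 were found, and of 56 markers 53.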

Additional observations from a re-analysis of the deposited data

Results flagged for a closer look

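In 16 of 231 groups of 4 libraries (a gene of the set in a gate where it averaged at least 20 CPM), 1 library stood apart from the other 3 by more than Dixon's 95% limit, which chance alone passes in about 1 of 20 groups. No explanation was tested for any of them. In the glutamate gate, female 2 was high for Slit1 (118 CPM, the others at most 76.5) and Sema3e (115, at most 60.9) and low for Unc5b (9.69, at least 28.4), while female 1 was low for Plxna4 (495, at least 542) and high for Robo1 (881, at most 777). In the GABA gate, male 1 was high for Sema3a (56.1 CPM, the others at most 30.1) and low for Sema6d (90.1, at least 124) and Epha7 (392, at least 456). In the dopamine gate, female 2 was high for Ephb2 (114 CPM, the others at most 69.5). In the Slc26a7/Gad2 gate, male 1, with the fewest nuclei, was high for Slit2 (802 CPM, the others at most 509.9) and female 2 was low for Epha3 (355, at least 559.8). Among glia, male 1 was high for Sema3e (67.0 CPM, the others at most 30.9) and Sema4d (49.9, at most 33.8) in astrocytes and for Plxnb2 in precursors (63.7, at most 39.7), female 1 was high for Sema4g in astrocytes (28.2, at most 22.6), and male 2 was low for Sema6d in oligodendrocytes (167, at least 181). The reported direction of Sema3e, Epha7 and Unc5b between neuron gates and of Epha3 in Slc26a7/Gad2 nuclei was the same in 4 of 4 libraries, these included.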

How the results depend on the processing

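The 10 comparisons between gates kept counts of called genes within 1.5 times the reported ones under each alternative run (DESeq2's test and size factors, no filter on low counts, doublets kept, exclusive and stricter gates, nuclei of at least 2000 UMIs, no library block, each library left out), except GABA against glutamate nuclei, where 3 in place of 5 genes were called with gates 1 UMI stricter. No fold change of a called gene reversed. Recomputed fold changes of called genes stayed called 2778 times and lost the call 99 times, for 46 gene and comparison pairs, and mean levels stayed within 1 SD over libraries 897 times and moved further 27 times. Counts between the sexes moved as follows. In place of 0 gene and gate pairs, 3 were called with no filter, 1 with stricter gates, and 1 to 9 with 1 library left out (9 without female 1, 1 without female 2, 2 without male 1 and 4 without male 2). Leaving out a library leaves 1 of that sex, which is then assumed to vary like the 2 of the other sex. A fit with the replicate number as a block called 7. The labels do not say that equal numbers mark a shared litter, batch or day, and only 2 pairs exist. The numbers were therefore not taken as pairs. Deviations of same-numbered libraries correlated positively over genes in every gate (0.0413 to 0.27), and what such libraries share was not tested. For the dependence of a sex difference on the gate, 1 gene (Slit2) was called with DESeq2, 7 with no filter, 1 with stricter gates, and 0 to 1 with 1 library left out. These causes were not tested. Depth limits the Slc26a7/Gad2 and microglia gates most: 3 UMIs over all 4 libraries correspond to 3.72 CPM in the first and 2.16 CPM in the second, against 0.127 CPM in the oligodendrocyte gate, so low genes cannot be told from absent ones there.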
